A study of Mus musculus with 5 samples.

Results

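The genes described here are Ifitm1, Ifitm2, Ifitm3 and Ifitm6 of the mouse interferon-induced transmembrane family, taken by symbol from the gene lists of the deposited single-cell matrices: 4 of 28692 gene identifiers. Ifitm5, Ifitm7 and Ifitm10 are further family members in the same lists and are given once, as a group. They were measured in kidneys of C57/BL6 mice of 8 weeks, in a model where a ureter is tied off (unilateral ureteric obstruction, UUO) and, in 1 group, later released. Droplet libraries represent 4 time points: sham surgery (day 0), 2 days of UUO, 7 days of UUO, and a release group collected at experimental day 14, with 7 days since the reversal. Each droplet library pooled 3 mice. With a single library for each time point, no difference between time points could be tested, and mouse, library and time point cannot be told apart. Kidneys were digested on ice, live cells were sorted with DAPI as a viability dye, and 3′ libraries with unique molecular identifiers (UMIs) were made. A further sample of 768 wells on 8 plates of 96, made by the full-length Smart-seq2 method, mixed all time points and its wells are not tied to a time point in the sources used here.

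IFITM proteins are small membrane proteins best known for blocking the entry of enveloped viruses at the cell surface and in endosomes. Ifitm1, Ifitm2 and Ifitm3 are classical interferon-stimulated genes, induced when type I interferon or interferon gamma binds its receptor at the cell surface, and Ifitm3 is the member most studied in influenza infection. Ifitm6 is a rodent member known from myeloid cells. Ifitm5 is known from bone-forming cells. Ifitm2 and Ifitm3 are known from endothelial and myeloid cells of many tissues.

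The 4 genes lie on chromosome 7 of GRCm38 as a cluster. In order along the chromosome these are Ifitm2 (ENSMUSG00000060591, chr7:140954837-140955987, minus strand), Ifitm1 (ENSMUSG00000025491, chr7:140967221-140969825, plus strand), Ifitm3 (ENSMUSG00000025492, chr7:141009586-141010770, minus strand) and Ifitm6 (ENSMUSG00000059108, chr7:141015699-141017924, minus strand). Because interferon-stimulated genes are read through an interferon-stimulated response element, the 300 bases around each RefSeq start (250 before, 50 after; GRCm38.p6) were searched on both strands for the letters GAAANNGAAA, and for TTCNNNGAA, the letters of a STAT homodimer site. The runs below are shown so that the letters can be set beside the expression values. Each 100-base run ends just before the first annotated exon base of its window, runs 5′ to 3′ on the gene's strand, and has GAAANNGAAA in capitals. For Ifitm1 and Ifitm6 that exon belongs to a shorter transcript, so these runs lie inside the longest annotated extent of the gene given above.
Ifitm1, chr7:140967928-140968027, plus strand: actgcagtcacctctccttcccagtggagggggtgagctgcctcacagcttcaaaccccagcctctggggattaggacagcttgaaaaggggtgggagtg
Ifitm2, chr7:140955988-140956087, minus strand: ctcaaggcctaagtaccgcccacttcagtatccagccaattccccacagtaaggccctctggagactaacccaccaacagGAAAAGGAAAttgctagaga
Ifitm3, chr7:141010771-141010870, minus strand: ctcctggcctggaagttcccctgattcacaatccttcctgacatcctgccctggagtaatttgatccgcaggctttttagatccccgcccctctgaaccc
Ifitm6, chr7:141016909-141017008, minus strand: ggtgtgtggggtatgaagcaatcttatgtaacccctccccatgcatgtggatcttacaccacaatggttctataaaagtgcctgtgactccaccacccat

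Ifitm2 held 1 match of GAAANNGAAA, starting at base -46 from the RefSeq start. Ifitm3 held 2, starting at bases 3 and 20 and so inside the first exon, and they are in capitals in the following 30-base run.
Ifitm3, chr7:141010714-141010743, minus strand: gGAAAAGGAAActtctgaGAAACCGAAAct
Between them, from base 14, Ifitm3 also held TTCNNNGAA, which shares its last 3 bases with the second GAAANNGAAA match. Ifitm6 held no GAAANNGAAA and 1 TTCNNNGAA, starting at base -10, in capitals in this 30-base run.
Ifitm6, chr7:141016883-141016912, minus strand: ccatatgaacTTCCTTGAAacaagagcttc
Neither string of letters was in the Ifitm1 window, which says only that these letters are not in these 300 bases. GAAANNGAAA was in 3.44% of 32851 RefSeq promoter windows and TTCNNNGAA in 8.3%. Among the 12 windows found for the type I interferon-stimulated genes listed further on, 7 and 3 held them. A match is a description of the letters and not a measured site.

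Reads of Ifitm2 are the least certain of the family. Of its 606 runs of 50 transcript bases, 294 (48.5%) also occur in another annotated transcript, 219 of them in Gm45717, whose exons share 268 of the 655 exonic bases of Ifitm2. Within the last 300 bases, nearest to where 3′ tags fall, 69 runs of Ifitm2 were shared, 69 with Gm8865 and 0 with Gm45717. Ifitm3 shared 63 of 629 runs (10.0%) and Ifitm1 53 of 833 (6.36%), none within their last 300 bases, and Ifitm6 shared none of 764. Where such reads were dropped or split, Ifitm2 would be undercounted, and this was not tested.

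The droplet libraries held 2739 to 5938 cell barcodes and 18649637 to 30462683 UMIs. After filters on genes (at least 200), mitochondrial UMIs (at most 50%) and doublet score, 3746 sham, 2159 day 2, 4287 day 7 and 3140 reversed cells remained, with median depths of 2660, 6562, 5646 and 4879 UMIs. The sham library stands apart: the median deposited sham cell had 40.6% mitochondrial UMIs, against 16.2%, 3.00% and 14.0% in the other libraries, and 1607 sham cells passed 50%. Any pair of libraries shared 16 to 39 barcodes. Cells were sorted into 23 classes by listed marker genes, and 91 to 209 cells (sham and day 2) and 228 to 305 cells (reversed and day 7) stayed ungated. Mononuclear phagocytes, meaning macrophages, monocytes and dendritic cells together, numbered 59, 528, 2335 and 618. Class names stand for cells that carried the markers, and levels are UMIs per 1000000 UMIs of the class (CPM), with exact Poisson intervals at 95% that cover counting error only.

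Ifitm3 and Ifitm2 marked endothelium, monocytes and other phagocytes in every library, Ifitm6 marked monocytes, and Ifitm1 was close to absent from the sham library. Over all kept cells Ifitm1 had 7, 2002, 2862 and 299 UMIs in sham, day 2, day 7 and reversed. None of the 7 sham UMIs was in a phagocyte; 6 lay in proximal tubule cells and 1 in a principal cell. Of the Ifitm1 UMIs of the obstructed libraries, phagocytes held 69.1% at day 2 and 60.4% at day 7, and after reversal they held 42.1%. Neutrophils made up less than 1% of the cells of each library (0.648%, 0.770% and 0.510%) and held 8.14%, 11.5% and 21.1% of the Ifitm1 UMIs. Ungated cells held 11.5% and 13% of it at day 2 and day 7. Ifitm6 was the most confined to phagocytes, which held 89.4% of its 47 sham UMIs and 85.2% to 87.1% of its UMIs in the other libraries.

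Ifitm3 spread differently. In sham, endothelium was 5.71% of cells and held 57.9% of 2689 Ifitm3 UMIs, while phagocytes were 1.57% of cells and held 19.0%. At day 7 phagocytes were 54.5% of cells and held 71.1% of 45105 Ifitm3 UMIs, and endothelium held 16.4%. In sham the tubule classes, 89.3% of the cells, held 47.6% of 2219 Ifitm2 UMIs, 8.93% of the Ifitm3 UMIs and all 7 of Ifitm1. In these whole-library sums a change in the makeup of the cells and a change per cell are added together, so the levels below are given within classes.

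**Figure D1:**
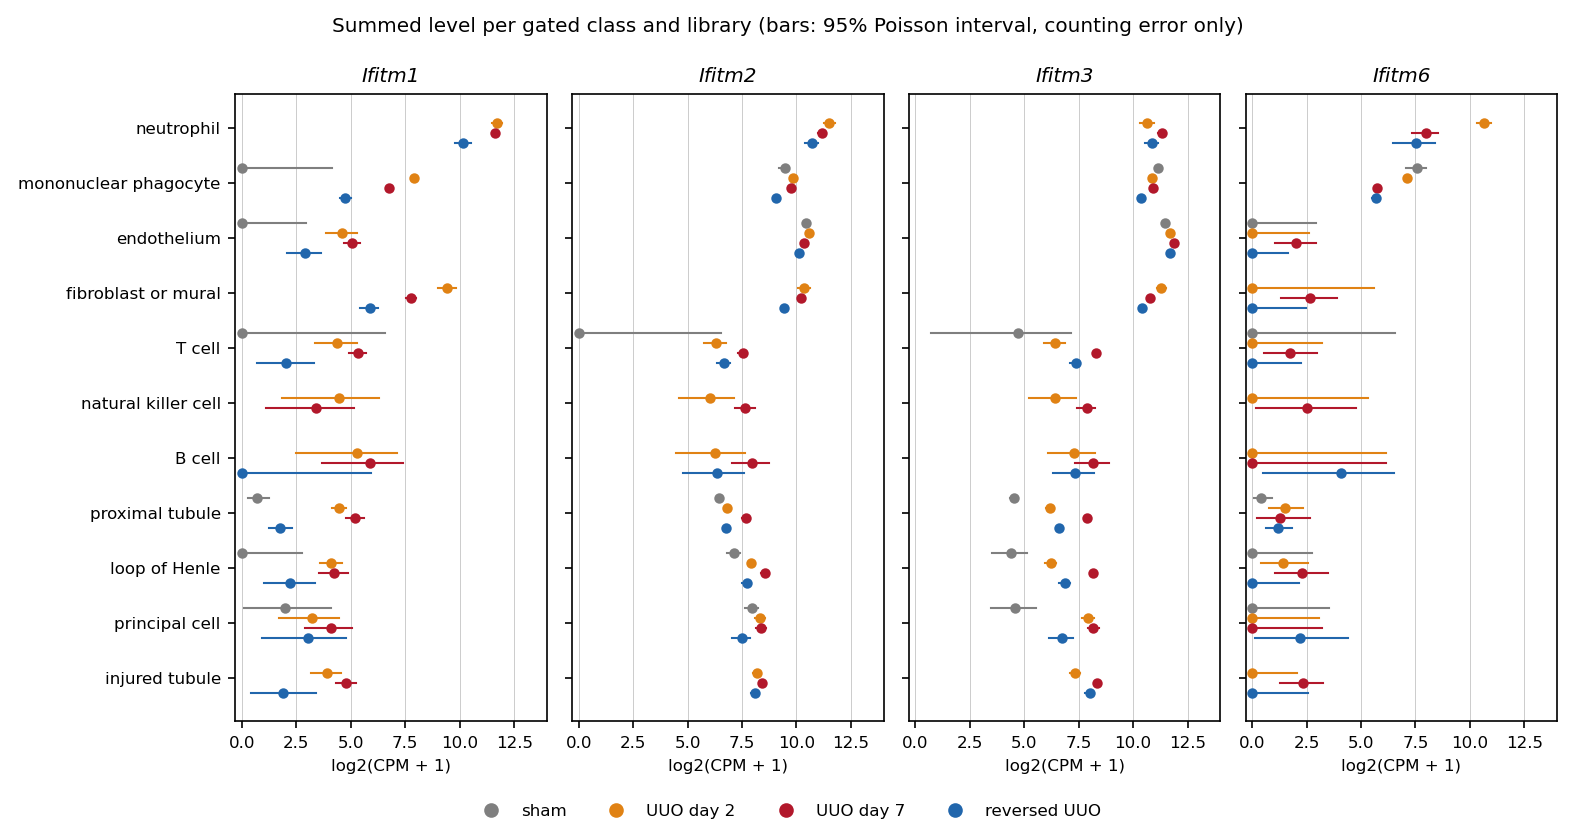
Each panel is 1 gene, with classes on the y axis and log2(CPM + 1) on the x axis; points are the droplet libraries with at least 10 cells of the class and bars are exact Poisson intervals at 95%. Ifitm3 in endothelium lies between 2805 and 3702 CPM in the 4 libraries, and Ifitm1 is highest in neutrophils, at 1142 to 3399 CPM.

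At day 7, among classes with at least 10 cells, the order of Ifitm3 began with Ly6c2-high monocytes at 4990 CPM (4846 to 5139), the circulating inflammatory type, and Ace-positive monocytes, the patrolling type, at 4084 (3693 to 4506). Endothelium followed at 3702 (3618 to 3787), and its interval overlaps that of the Ace-positive monocytes. Neutrophils had 2548 CPM of Ifitm3, type 2 conventional dendritic cells 2128, macrophages 1867 and the fibroblast or mural class 1760 (1666 to 1859), the last 2 within counting error of each other. Ccr7-positive dendritic cells had 932 CPM and type 1 conventional dendritic cells 648. Tubule classes, lymphocytes and plasmacytoid dendritic cells lay between 232 and 339 CPM of Ifitm3, many with overlapping intervals.

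The other members had other orders at day 7. Ifitm2 was led by neutrophils (2328 CPM), Ly6c2-high monocytes (1775) and Ace-positive monocytes (1354), with endothelium at 1290 and fibroblast or mural cells at 1170 within counting error of the Ace-positive monocytes. Ifitm1 was led by neutrophils at 3142 CPM (2811 to 3501), more than 10 times the next class, type 2 dendritic cells at 291 (269 to 315), with fibroblast or mural cells at 217 and Ly6c2-high monocytes at 216. Ifitm6 was led by Ly6c2-high monocytes at 462 CPM (418 to 508) and Ace-positive monocytes at 308 (208 to 440), then neutrophils at 249 (163 to 365), which overlap the Ace-positive monocytes, and type 2 dendritic cells at 104. Macrophages had 16.3 CPM of Ifitm6 and endothelium 3.00, from 6 UMIs.

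Taking all phagocytes together, Ifitm3 was the most abundant member in every library, Ifitm1 was high only in the obstructed libraries, and Ifitm6 was highest in sham and day 2. Summed over the 4 genes, phagocytes had 3152, 3148, 2970 and 1913 CPM in sham, day 2, day 7 and reversed. The reversed library was lowest. In such sums over phagocytes, the mix of subclasses and the level within each are added together, so subclasses follow.

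For Ifitm1, the 59 sham phagocytes had 0 UMIs in 225591, where 3 UMIs would be 13.3 CPM and the exact interval ends at 16.4 CPM, and day 2 had 235.7, day 7 had 105.1 and reversed had 25.8 CPM (21.5 to 30.7). Day 2 was at least 17.7-fold above sham, with the 0 set to 3 UMIs, a log2 ratio of at least 4.15, and the exact interval of the ratio began at 3.77. Day 7 was lower than day 2 by 1.16 on the log2(CPM + 1) scale (log2 ratio -1.16, interval -1.26 to -1.06). Reversed was lower again, with a log2 ratio of -1.99 to day 7 (-2.25 to -1.73). The reversed library was at least 1.94-fold above the sham bound, which does not reach the 2-fold size used here, and without the 1% of cells with the most Ifitm1 the log2 bound went from 0.95 to -0.19. The order of the intervals was day 2, day 7, reversed, with no overlap.

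For Ifitm6, sham phagocytes had 186 CPM (134 to 252, from 42 UMIs), day 2 had 139.5, day 7 had 52.7 and reversed had 50.7 CPM. Sham and day 2 overlapped in counting error, as did day 7 and reversed. The log2 ratio of day 7 to day 2 was -1.39 (-1.52 to -1.25), and that of reversed to sham was -1.86 (-2.33 to -1.35).

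Ifitm3 stayed within 2-fold in every pair of libraries compared, with 2265, 1846, 1950 and 1302 CPM in phagocytes of sham, day 2, day 7 and reversed. Its largest log2 ratio was -0.80 (-0.93 to -0.67), reversed over sham. Ifitm2 had 700.4, 926.8, 862.4 and 534.2 CPM in the same order, and its largest log2 ratio was -0.69 (-0.75 to -0.63), reversed over day 7. Both were lowest in the reversed library.

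Counted against all genes with at least 30 UMIs in phagocytes, 1 of 4 members was past 2-fold higher at day 2 over sham, where 18.7% of 8998 genes were, and none lower, where 8.57% were. At day 7 over day 2, 2 of 4 members were past 2-fold lower, where 2.64% of 11746 genes were, and none was higher, where 7.74% were. At reversed over day 7, 1 of 4 was lower, against a background of 0.819% of 11846 genes, and none higher, where 2.03% were. At reversed over sham, 1 of 4 (Ifitm6) was lower, against 5.53% of 9070 genes, and Ifitm1, fitted against 0, counted as higher where 18.2% of genes did. The 4 libraries recur in these comparisons, so the ratios are not independent of each other. Summed proximal tubule markers in the median phagocyte were 24.1, 1.49, 2.47 and 10.7 per 10000 UMIs in sham, day 2, day 7 and reversed. They were highest in sham. Set by such markers, free RNA made up at most 14.4%, 9.04%, 19.8% and 14.8% of phagocyte UMIs in the same order. Members with UMIs lay at 5.30 to 341 times the level this would give, and subtracting it was among the settings tried.

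The phagocyte subclasses differed in number between libraries. Ly6c2-high monocytes were 11.9% of sham phagocytes (7 of 59 cells), 23.1% at day 2, 5.95% at day 7 and 5.34% after reversal. Macrophages were 49.2%, 55.5%, 74.3% and 66.8%. Ace-positive monocytes were 11.9%, 2.84%, 0.857% and 1.94%, and type 1 dendritic cells were 10.8% after reversal against 3.39% to 4.75% before.

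**Figure D2:**
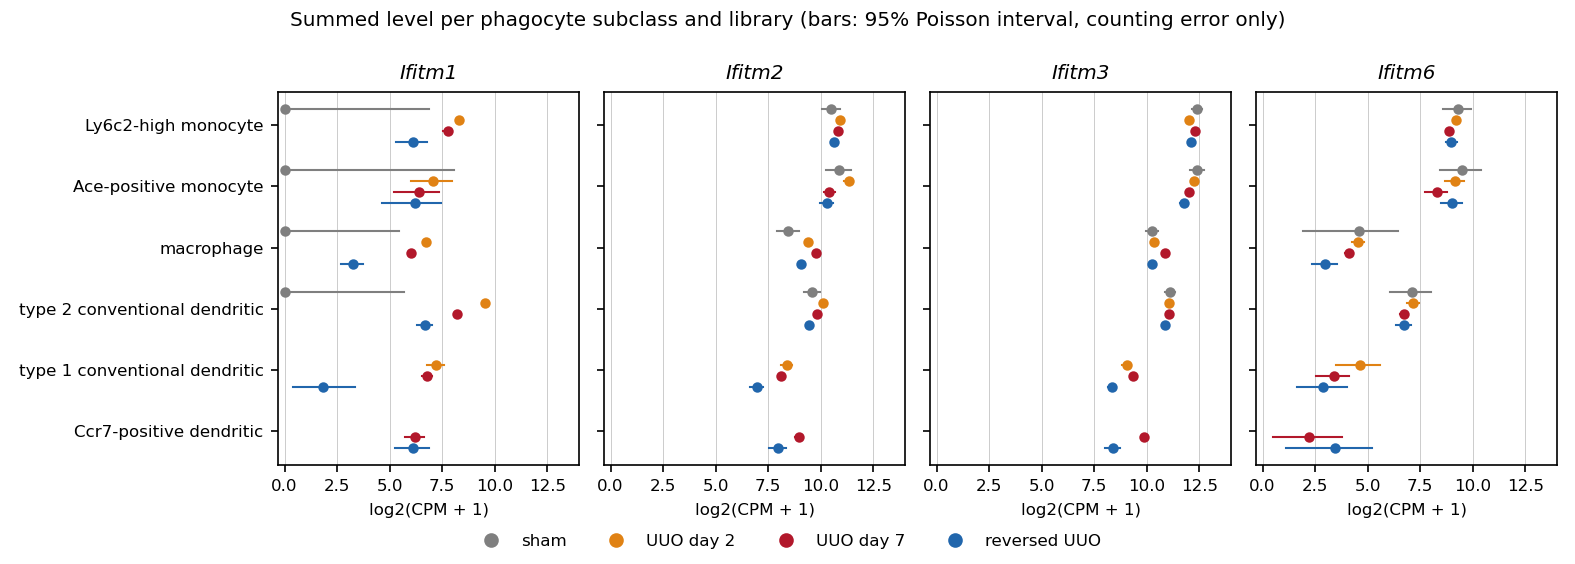
Each panel is 1 gene, with phagocyte subclasses on the y axis and log2(CPM + 1) on the x axis; points are the droplet libraries with at least 5 cells of the subclass and bars are exact Poisson intervals at 95%. Ifitm3 and Ifitm6 are highest in both monocyte subclasses in the 4 libraries, and Ifitm6 in macrophages is at or below 23.4 CPM.

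Within Ly6c2-high monocytes, Ifitm6 had 625, 580, 462 and 504 CPM in sham, day 2, day 7 and reversed, from 7, 122, 139 and 33 cells. The day 7 to day 2 log2 ratio there was -0.33 (-0.51 to -0.15), where the ratio over all phagocytes was -1.39. Within macrophages Ifitm6 had 23.4 (from 2 UMIs), 22.4, 16.3 and 6.76 CPM, with a day 7 to day 2 log2 ratio of -0.43 (-0.80 to -0.06). When the monocytes of both kinds were left out of the phagocyte sum, the Ifitm6 ratio of day 7 to day 2 was -0.57, inside 2-fold. The share of monocytes among phagocytes was lower at day 7 as well, and within Ly6c2-high monocytes and within macrophages the day 7 level was lower by less than 2-fold.

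Ifitm3 in Ly6c2-high monocytes was 5341, 4067, 4990 and 4425 CPM, and in macrophages 1204, 1275, 1867 and 1206 CPM, in the order sham, day 2, day 7, reversed. Monocytes were thus at 2.67 to 4.44 times the macrophage level in the 4 libraries. In macrophages day 7 was highest, with a log2 ratio of 0.55 (0.50 to 0.60) to day 2 and -0.63 (-0.68 to -0.58) from day 7 to reversed. Ifitm2 in macrophages followed the same order, with 351, 663, 870 and 527 CPM. In macrophages at day 7 over day 2, none of the 4 members was past 2-fold, where 9.61% of 11040 genes were higher and 4.78% lower. Ifitm6 in Ly6c2-high monocytes was at 26.0, 28.4 and 74.6 times the macrophage level at day 2, day 7 and reversed, from 82, 185 and 20 macrophage UMIs, the last at 4.13 to 10.4 CPM by counting error. The sham macrophages held 2 Ifitm6 UMIs, too few for such a ratio.

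Ifitm1 was lower in later libraries in each subclass with enough cells, by different amounts. Ly6c2-high monocytes had 0 UMIs in sham and 316, 216 and 67.2 CPM in day 2, day 7 and reversed. Type 2 dendritic cells had 0 UMIs in sham and 748, 292 and 101 CPM, and macrophages 0 UMIs and 104, 63.0 and 8.45 CPM. The day 7 to day 2 log2 ratio was -1.36 (-1.52 to -1.19) in type 2 dendritic cells, -0.72 in macrophages and -0.55 in Ly6c2-high monocytes. The members past 2-fold lower there were 1 of 4 in type 2 dendritic cells, against 2.54% of 7128 genes, and 0 of 4 in Ly6c2-high monocytes, against 1.83% of 5695, where none was higher either, against 6.16%.

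From day 7 to reversed the Ifitm1 log2 ratio was -2.76 (-3.32 to -2.24) in macrophages, -1.53 (-1.92 to -1.16) in type 2 dendritic cells and -1.67 (-2.49 to -0.94) in Ly6c2-high monocytes. Type 1 dendritic cells went from 138 UMIs in 111 cells to 2 UMIs in 67 cells, a log2 ratio of -4.94 (-6.40 to -3.38), and 1 cell held 61 of the 138. With equal weight per cell it was -4.07, and with a pseudocount of 10 CPM -3.23. The reversed level was 1.26 times that of free RNA, so subtraction left less than 1 UMI and no ratio of use. In macrophages Ifitm6 was also lower (-1.16, but -0.46 with clusters, -0.65 with a pseudocount of 10 CPM and -0.95 after free-RNA subtraction), so that 2 of 4 members were past 2-fold, against 1.87% of 11084 genes, and none was higher, against 2.33%. In type 1 dendritic cells Ifitm2 was also lower (-1.16, but -0.89 with equal weight per cell), so that 2 of the 3 members with at least 30 UMIs were past 2-fold, against 2.72% of 5891 genes. In type 2 dendritic cells and Ly6c2-high monocytes Ifitm1 alone was, against 4.07% of 7044 and 4.28% of 4435 genes, and in the monocytes none was higher, against 2.68%. In the 139 monocytes of day 7, 1 cell held 77 of the 194 Ifitm1 UMIs, and in the reversed type 2 dendritic cells 1 cell held 26 of 64.

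The phagocyte UMIs of Ifitm1 were held by few cells. At day 2, 12 of 528 phagocytes held 50% of 1384 Ifitm1 UMIs, and the highest cell had 121. At day 7, 35 of 2335 held 50% of 1728 UMIs, and after reversal 5 of 618 held 50% of 126. The median phagocyte had 0 Ifitm1 UMIs in every library. For Ifitm3 the same 50% took 117, 482 and 98 cells, for Ifitm2 125, 523 and 104, and for Ifitm6 42, 82 and 17. The median phagocyte had 6, 17, 10 and 6 UMIs of Ifitm3 and 2, 8.5, 5 and 3 of Ifitm2 in sham, day 2, day 7 and reversed.

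**Figure D3:**
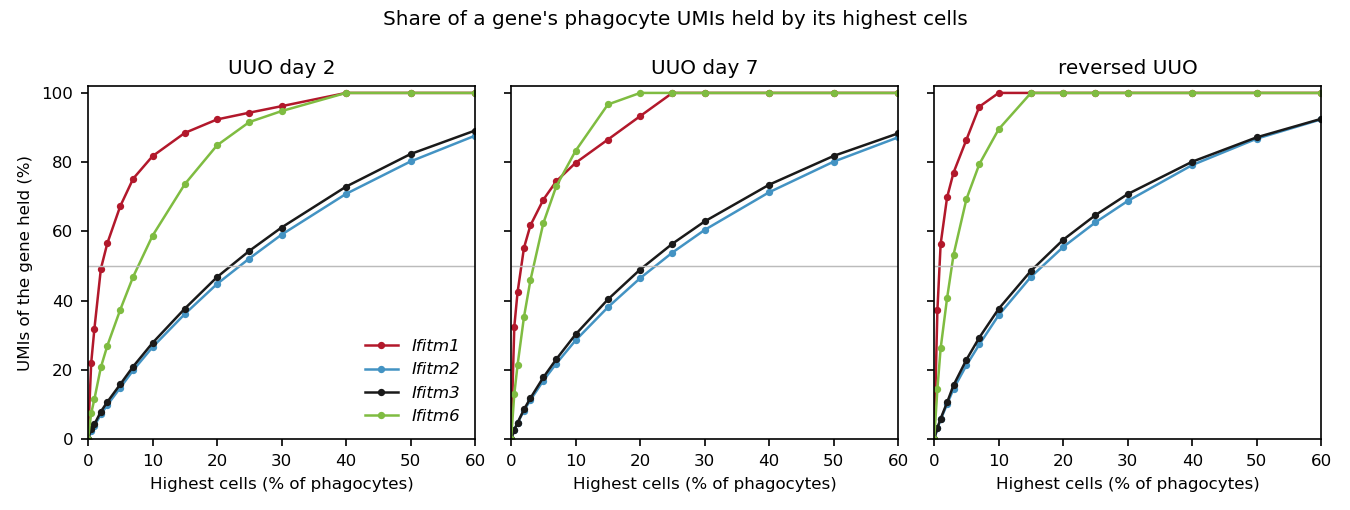
Percent of a gene's phagocyte UMIs (y axis) held by the phagocytes with the most UMIs of that gene (x axis, percent of phagocytes, shown to 60%), for day 2, day 7 and reversed. The Ifitm1 curve climbs steepest, with 50% of UMIs in 2.27% of cells at day 2, 1.499% at day 7 and 0.809% after reversal.

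The cells that held 50% of the Ifitm1 UMIs were chosen by that value, so what follows describes them. Of the 12 at day 2, 5 were gated as type 2 dendritic cells, 3 as macrophages and 2 as Ly6c2-high monocytes. Of the 35 at day 7, 18 were type 2 dendritic cells and 12 macrophages, where 247 and 1734 of the 2335 phagocytes were. Their median total depth was 9114 UMIs at day 2, against 10066 in the other phagocytes, and 8865 at day 7, against 6510. Per 10000 UMIs of a cell, their median level of summed neutrophil markers was 3.75 at day 2 and 2.58 at day 7, against 1.98 and 2.44 in the other phagocytes and 1019 and 557 in gated neutrophils. The highest neutrophil marker level among the 12 cells was 14.3, and among the 35 cells 78.5. The same cells also had more Ifitm2 and Ifitm3 than the others: median Ifitm3 was 29.4 against 15.1 per 10000 UMIs at day 2 and 34.5 against 16.2 at day 7.

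The cells holding 50% of the Ifitm6 UMIs were of another kind. Of 42 at day 2, 32 were Ly6c2-high monocytes and none macrophages, and of 82 at day 7, 52 were Ly6c2-high monocytes, 18 type 2 dendritic cells and 9 macrophages. Their median Ifitm1 was 1.41 and 1.17 per 10000 UMIs, and their median Ifitm3 45.2 and 50.6. These cells too were chosen by the value described. Over all phagocytes of day 7, the 1728 Ifitm1 UMIs lay in macrophages (716), type 2 dendritic cells (628) and Ly6c2-high monocytes (194) first, and the 867 Ifitm6 UMIs in Ly6c2-high monocytes (415), type 2 dendritic cells (223) and macrophages (185), so the same 3 subclasses held most of both in another order.

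Shares of phagocytes with at least 1 UMI show the same contrast. Ifitm3 was detected in 86.4%, 97.0%, 98.0% and 92.9% of phagocytes and Ifitm1 in 0%, 39.96%, 24.97% and 7.77%, where 3 of 59 cells would be 5.09% and the exact interval of the 0 ends at 6.06%. Thinned to 1000 UMIs a cell, Ifitm1 was in 11.9%, 6.08% and 2.10% of phagocytes of day 2, day 7 and reversed. Proximal tubule cells, taken as a class not known for Ifitm1, had it in 10.9%, 17.5% and 1.35% unthinned and in 2.22%, 1.46% and 0.0903% thinned. Median depth was 10052, 6543 and 6834 UMIs for those phagocytes and 4402, 5434 and 4546 for those tubule cells. The thinned shares of phagocytes lie above the tubule shares in the 3 libraries.

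Neutrophils, with 0 cells in sham and 14, 33 and 16 in day 2, day 7 and reversed, had UMIs of all 4 members. Ifitm1 was at 3399, 3142 and 1142 CPM, with a median of 10, 6 and 1.5 UMIs a cell, and it was detected in 12 of 14, 29 of 33 and 11 of 16 cells. Day 2 and day 7 overlap in counting error, and reversed is lower than both. Ifitm2 was at 2920, 2328 and 1668 CPM and Ifitm3 at 1606, 2548 and 1849, the last with 59 of 102 UMIs in 1 cell. Ifitm6 was at 1627, 249 and 181 CPM, but at day 2 a single cell held 49 of the 78 UMIs. Day 2 and reversed hold fewer than the 30 cells required for a ratio. In clustering, 62 of the gated neutrophils fell in phagocyte clusters and none in a neutrophil cluster, so the class rests on its markers alone. At day 7, 10 further cells lay just below the lead the gate requires and 4 just above it. Set by proximal tubule markers, the free-RNA share of the day 2 neutrophils reached its limit of 100%, at which Ifitm3 would be 922 CPM and Ifitm1 119 CPM, so their Ifitm3 was at 1.74 times and their Ifitm1 at 28.7 times that level. At day 7 and reversed, Ifitm3 was at 6.74 and 12.9 times the free-RNA level and Ifitm1 at 131 and 418 times.

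The fibroblast or mural class, with 9, 11, 78 and 94 cells, had Ifitm3 at 338, 2504, 1760 and 1373 CPM and Ifitm2 at 338, 1316, 1170 and 692. Its Ifitm1 was 0 UMIs in sham and 684, 217 and 57.0 CPM afterwards, and at day 2 a single cell held 48 of 53 UMIs. At day 2 a single cell also held 113 of 194 UMIs of Ifitm3 and 72 of 102 of Ifitm2, so the day 2 levels of this class rest on it. From day 7 to reversed, Ifitm1 was lower with a log2 ratio of -1.91 (-2.41 to -1.44), the 1 of 3 measured members past 2-fold lower where 5.4% of 6594 genes were. In the 6 plasmacytoid dendritic cells of day 2, 77 of 78 Ifitm1 UMIs came from 1 cell.

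Endothelium kept its 2 abundant members at similar levels throughout. Ifitm3 was at 2805, 3307, 3702 and 3286 CPM in 214, 154, 475 and 361 cells of sham, day 2, day 7 and reversed, and was found in 95.3% to 100% of them. Its log2 ratios were 0.24 (0.15 to 0.33) for day 2 over sham, 0.16 for day 7 over day 2 and -0.17 for reversed over day 7. Ifitm2 was at 1367, 1508, 1290 and 1126 CPM, with ratios between -0.28 and 0.14. The share with an Ifitm3 UMI after thinning to 1000 UMIs was 88.3% to 95.4%, against 2.24% to 20.9% in proximal tubule cells. Neither gene came near 2-fold in any of the 4 comparisons.

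Ifitm1 in endothelium was 0, 17, 65 and 11 UMIs, or 0, 23.3, 32.5 and 6.44 CPM. It was lower in reversed than day 7 with a log2 ratio of -2.17 (-3.07 to -1.33), the 1 of 3 measured members past 2-fold, where 1.78% of 9414 genes were lower, and none was higher, where 2.15% were. The level expected if endothelium took up free RNA in proportion to its proximal tubule transcripts was 11.03, 18.5 and 2.19 CPM in the 3 later libraries, so Ifitm1 was at 1.76 to 2.94 times that level. Ifitm6 had 6 UMIs at day 7 and 0 in the other 3. No member with at least 30 UMIs was past 2-fold higher in endothelium at day 2 over sham, day 7 over day 2 or reversed over sham, where 3.77%, 6.58% and 7.6% of genes were, or lower, where 4.05%, 2.71% and 2.65% were.

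The tubule carried low levels of the family, and the makeup differed: Ifitm2 exceeded Ifitm3 in sham tubule cells, in contrast to phagocytes and endothelium. In proximal tubule cells (3033, 586, 206 and 1108 of them) Ifitm2 was at 85.2, 111.6, 205.8 and 106.1 CPM and Ifitm3 at 22.0, 71.8, 237 and 94.6 CPM. Of the summed Ifitm2 and Ifitm3 UMIs, Ifitm3 was 20.5% (18.1 to 23.1) in sham and 39.2%, 53.5% and 47.1% in day 2, day 7 and reversed. In sham it was 12.6% in loop of Henle, 8.93% in intercalated and 8.60% in principal cells, from 56 to 103 UMIs each. In phagocytes the same share was 66.6% to 76.4% and in endothelium 67.2% to 74.5% in the 4 libraries.

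Free RNA from lysed cells adds UMIs to all droplets, and its amount was set for each library by the macrophage markers found in tubule cells. At that amount, proximal tubule cells would hold up to 30.1, 67.2, 221 and 97.6 CPM of Ifitm3, against 22.0, 71.8, 237 and 94.6 measured. The measured Ifitm3 was thus 0.731 to 1.07 times the free-RNA level, which is an upper bound. Expression by these cells and free RNA cannot be told apart at these values. For Ifitm2 the same amount gives 24.8, 39.2, 103 and 45.4 CPM, and the measured values were 1.99 to 3.43 times as high in the 4 libraries.

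**Figure D4:**
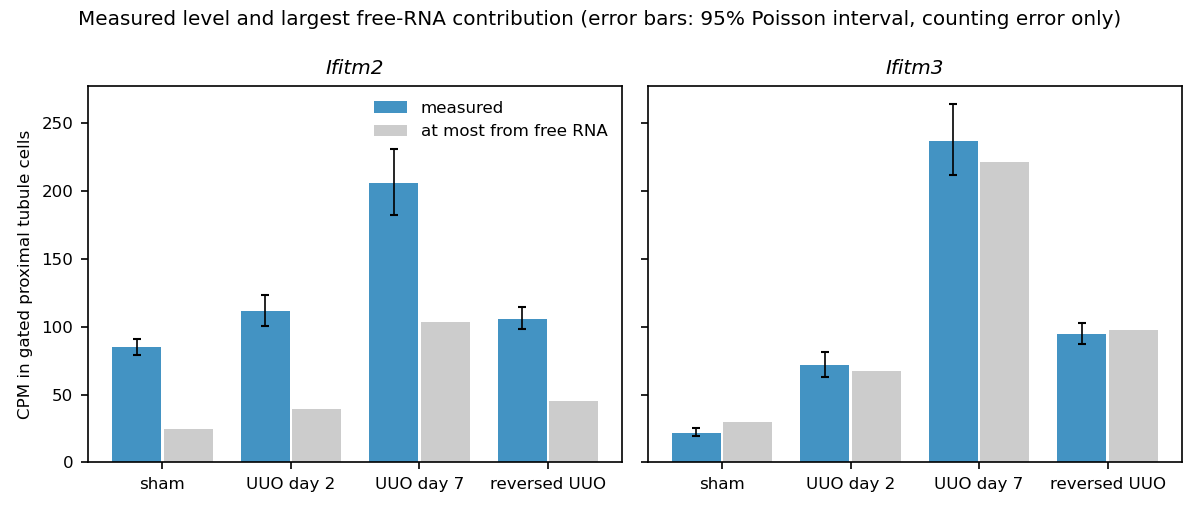
Bars are CPM in gated proximal tubule cells by library (blue, measured, with exact Poisson intervals at 95%; grey, the most that free RNA would give), for Ifitm2 and Ifitm3. Measured Ifitm2 is 1.99 to 3.43 times the grey bar, and measured Ifitm3 is 0.731 to 1.07 times it.

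The ratios of Ifitm3 in proximal tubule, 1.66 for day 2 over sham, 1.71 for day 7 over day 2, -1.32 for reversed over day 7 and 2.06 for reversed over sham on the log2 scale, moved with the free-RNA level and are given for completeness. With Ifitm1, which went from 6 sham UMIs to 67 at day 2 (0.623 to 21.0 CPM, log2 ratio 3.76, 3.13 to 4.23), 2 of 3 members were past 2-fold higher at day 2 over sham, where 8.44% of 9992 genes were. At day 2, 64 of 586 proximal tubule cells held those 67 UMIs, at most 2 each, and the free-RNA level was 8.64 CPM. At day 7 over day 2, 1 of 3 members was higher, where 7.86% of 8565 genes were, and at reversed over day 7, 2 of 3 were lower, where 7.61% of 9825 were. At reversed over sham 1 of 2 (Ifitm3) was higher, where 8.42% of 10589 genes were. These comparisons share libraries. When cells above 20% mitochondrial UMIs were left out, the day 2 to sham ratio of Ifitm3 turned to -0.20, its reversed to sham ratio was 0.61, and Ifitm1 no longer had the 30 UMIs needed at day 2 over sham, so both counts went to 0. After free-RNA subtraction the reversed over sham count was 0 as well, and the day 2 over sham and reversed over day 7 counts were 1 each.

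In intercalated cells Ifitm3 was above the free-RNA level in the 3 later libraries, and in principal cells it was above it at day 2 and day 7. Intercalated cells had 15.4, 213, 339 and 158 CPM in sham, day 2, day 7 and reversed, against free-RNA levels of 67.6, 79.5, 200 and 94.1, and principal cells had 23.1, 245, 288 and 105 CPM against 34.9, 60.8, 214 and 82.7. The interval of the reversed principal cells, 70.3 to 151 CPM, spans their free-RNA level. The sham intercalated cells were below the free-RNA level, that of the sham principal cells lies inside their interval of 9.99 to 45.6 CPM, and in both day 2 was 2.67 to 4.03 times it. The log2 ratio of day 2 over sham was 3.70 (2.51 to 5.17) in intercalated cells and 3.35 (2.35 to 4.52) in principal cells, from 5 and 8 sham UMIs. At day 2, 16 of 108 intercalated cells held 50% of 245 Ifitm3 UMIs, and 6 of 55 principal cells held 50% of 120. The median cell of both classes had 1 Ifitm3 UMI. Free-RNA subtraction left no sham Ifitm3 in either class, so ratios against sham have no size under that setting. With clusters the reversed over sham ratio of principal cells was 3.41, against 2.13 with gated classes. At day 2 over sham Ifitm3 was the 1 of 2 measured members past 2-fold higher, where 9.49% of 5595 and 9.15% of 3837 genes were. From day 7 to reversed it was the 1 of 2 past 2-fold lower in both, at -1.10 and -1.45, where 3.64% and 7.17% of genes were; with the 20% mitochondrial limit the intercalated ratio was -0.97, and with clusters the principal cell ratio was -0.37. At reversed over sham it was the 1 of 2 higher, at 3.27 and 2.13, where 8.82% and 2% were.

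Loop of Henle cells had Ifitm3 at 19.9, 73.3, 287 and 115 CPM, against free-RNA levels of 40.4, 61.6, 206 and 80.8, so the later libraries were at 1.19 to 1.43 times the free-RNA level, which lies inside the day 2 interval of 61.4 to 87.0 CPM. Ifitm3 was the 1 member past 2-fold in each comparison there: higher at day 2 over sham (1.83, where 8.61% of genes were), at day 7 over day 2 (1.95, where 7.58% were) and reversed over sham (2.48, where 11.1% were), and lower at reversed over day 7 (-1.31, where 3.33% were). The last was -0.95 with the 20% mitochondrial limit. Day 2 over sham was 2.59 with clusters and day 7 over day 2 was 2.78 after free-RNA subtraction, which left no sham Ifitm3 in this class. The injured tubule class, whose markers are keratins, Cldn4, Havcr1 and Lcn2, was not well set apart by clustering: 98 of its cells fell in clusters named so, 140 in loop of Henle and 81 in principal cell clusters. Ifitm3 in it was at 160, 327 and 255 CPM in day 2, day 7 and reversed, against 60.9, 200 and 86.8. It was the 1 of 3 members past 2-fold higher at day 7 over day 2 (1.03, where 7.14% of genes were), a ratio that was 0.46 after free-RNA subtraction, 1.96 with clusters and 0.88 to 0.99 under 4 other settings. At reversed over day 7 Ifitm1 was the 1 of 3 lower, from 40 to 2 UMIs, where 2.93% were. Its free-RNA level there was 12.7 and 1.66 CPM, against 26.5 and 2.67 measured.

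T cells had Ifitm3 at 83.7, 315 and 163 CPM in day 2, day 7 and reversed, against free-RNA levels of 103, 288 and 133 set by proximal tubule markers, and Ifitm2 at 77.1, 183 and 101 CPM against 60.4, 134 and 61.9. The 3 libraries thus lay at 0.809 to 1.22 times the free-RNA level for Ifitm3 and at 1.28 to 1.63 times for Ifitm2. At day 7 over day 2 both were past 2-fold higher, Ifitm3 at 1.90 and Ifitm2 at 1.24 (2 of 3 members, where 10.6% of genes were). Day 2 Ifitm3 lay below its free-RNA level, so its ratio after free-RNA subtraction (5.05) has no fixed size. At reversed over day 7 Ifitm1 was lower, from 50 to 3 UMIs (1 of 3, where 2.69% were). Its free-RNA level there was 18.3 CPM at day 7 and 2.54 after reversal, against 39.03 and 3.09 measured, so both were lower after reversal.

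The members were next set beside the interferon pathway, by lists of ligands, receptors, signalling proteins and target genes. At day 7 over day 2 in phagocytes, most target genes were past 2-fold higher. None of the 4 members was, a count near the background of 7.74% of all genes. Of 18 type I interferon-stimulated genes, 15 were past 2-fold higher and 0 lower, with a median log2 ratio of 1.39, and of 8 interferon gamma targets 6 were higher, with a median of 1.48, where 7.74% of all genes were higher. The median over all genes tested was 0.06 and that of the 4 members -0.63, with Ifitm3 at 0.08 (0.05 to 0.11). Within macrophages alone, 15 of 18 type I targets and 6 of 8 gamma targets were past 2-fold higher, with medians of 1.57 and 1.90, where 9.61% of all genes were, and Ifitm3 and Ifitm2 were higher by less, at 0.55 and 0.39, with a median of -0.02 over the 4 members. Ifit3, an antiviral RNA-binding protein, was at 17.5 and 97.4 CPM at day 2 and day 7 (2.41, 2.13 to 2.69). Isg15, a ubiquitin-like protein, was at 67.3 and 223 CPM (1.71, 1.56 to 1.86). Iigp1, a gamma-induced GTPase, was at 4.60 and 68.2 CPM (3.63, 3.16 to 4.11).

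A few listed targets were like Ifitm2 and Ifitm3 in this. Ly6e, a membrane protein of the type I list, was at 969 and 960 CPM (-0.01, -0.06 to 0.03), Ifi27 had a ratio of 0.05, and the chemokine gene Cxcl10 of the gamma list 0.08. Ly6e had the highest CPM of its list in both libraries.

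Of 10 signalling genes 4 were past 2-fold higher at day 7 over day 2 in phagocytes, where 7.74% of all genes were, among them Stat2 (1.95), Irf7 (1.76) and the feedback inhibitor Usp18. The median of the 10 was 0.85. Of 6 receptor genes 5 had enough UMIs, and none passed 2-fold; Ifnar1, a chain of the type I receptor, had the largest ratio at 0.81. None of 8 ligand genes reached 30 UMIs in phagocytes or endothelium. Ifng, the gamma ligand, had 4, 42, 107 and 65 UMIs over all kept cells of sham, day 2, day 7 and reversed, and in T cells of day 2, day 7 and reversed it was at 52.9, 45.3 and 53.5 CPM, with 2 UMIs in those of sham. Ifnb1 had 1 UMI in all, at day 7.

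In endothelium at day 7 over day 2, 11 of 17 measured type I targets and 5 of 7 gamma targets were past 2-fold higher, with medians of 1.12 and 1.15, where 6.58% of all genes were higher and their median was 0.06. None of 3 members was, a count near that background. Ifitm3 there had a ratio of 0.16, against 1.62 for Ifit3 and 1.36 for Isg15. In several other classes members and type I targets lay past 2-fold in the same direction in at least 1 comparison. Intercalated cells at day 2 over sham had 1 of 2 members and 4 of 4 type I targets higher, against 9.49% of genes. Loop of Henle at day 7 over day 2 had 1 of 3 and 7 of 9 higher, against 7.58%. Type 1 dendritic cells at reversed over day 7 had 2 of 3 and 7 of 14 lower, against 2.72%. Injured tubule at reversed over day 7 differed, with 1 of 3 members lower and a type I median of 0.92. The median of all genes was 0.06. In T cells at day 7 over day 2, 2 of 3 members, 7 of 13 type I and 5 of 6 gamma targets were past 2-fold higher, where 10.6% of genes were, and in proximal tubule at reversed over day 7, 2 of 3 members, 9 of 12 type I and 6 of 6 gamma targets were lower, where 7.61% were. Ifitm3 lay near the free-RNA level in T cells and proximal tubule. After free-RNA subtraction the proximal tubule count at reversed over day 7 was 1 member. The lists were chosen with results of these data known, so their direction is not independent evidence.

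**Figure D5:**
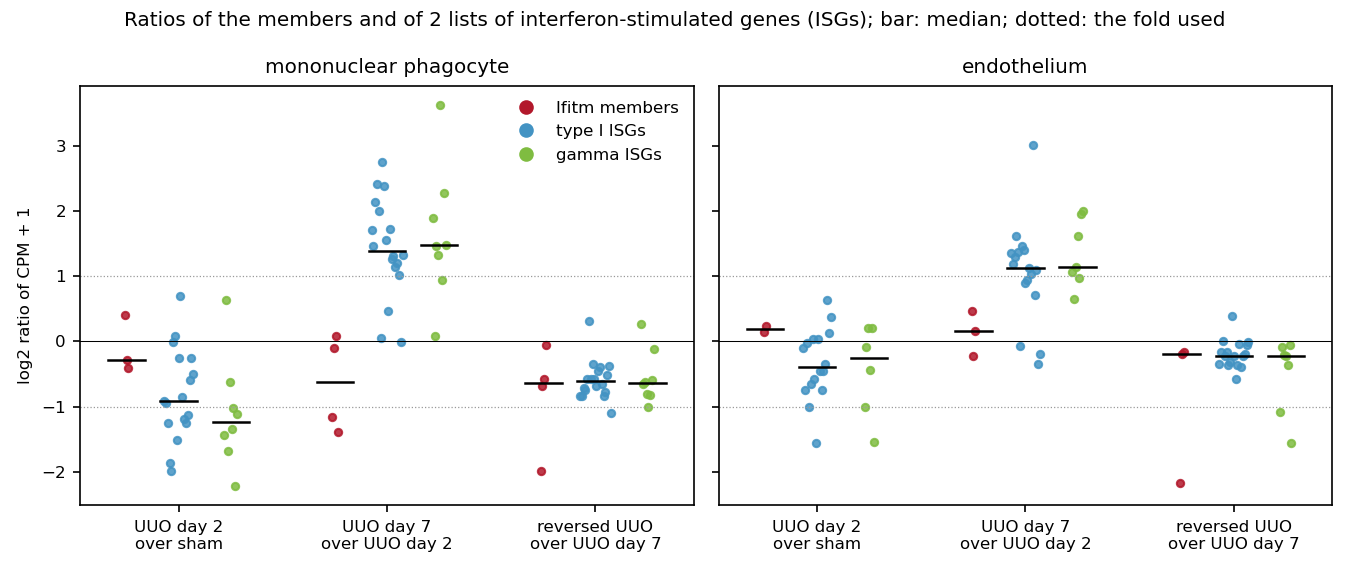
The y axis is the log2 ratio of CPM + 1 for the members, the type I targets and the gamma targets, in phagocytes (left) and endothelium (right), for 3 comparisons of libraries; each point is a gene with at least 30 UMIs, bars are medians of the points drawn, dotted lines mark 2-fold, and a gene with 0 UMIs in either library, such as Ifitm1 in sham, is not drawn. At day 7 over day 2 the medians of the targets lie between 1.12 and 1.48 and those of the members at -0.63 and 0.16.

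At day 2 over sham the phagocyte targets lay lower: 7 of 17 type I and 6 of 8 gamma targets were past 2-fold lower, with medians of -0.92 and -1.23, on 59 sham cells, where 8.57% of all genes were lower and their median was 0.17. Of 10 signalling genes 5 were lower, and of 5 receptor genes none, with medians of -0.92 and -0.49. Ifitm3 had a ratio of -0.29 (-0.42 to -0.16) and Ifitm2 0.40 (0.18 to 0.64) in the same comparison. At reversed over day 7, 1 of 18 type I targets (Ly6a, -1.10) and 1 of 8 gamma targets were past 2-fold lower, with medians of -0.62 and -0.64, where 0.819% of all genes were lower and their median was -0.03. The list medians lie near the -0.69 of Ifitm2 and -0.58 of Ifitm3.

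Across 44 sums of a class in a library with at least 30 cells, the level of Ifitm2 followed that of Ifitm3 most closely, with a Pearson correlation of log2(CPM + 1) of 0.897. Other pairs of members lay between 0.615 (Ifitm2 with Ifitm6) and 0.760 (Ifitm1 with Ifitm6). From 13213 genes, members and all class marker genes were left out of the listing, so no marker could appear in it. Among the rest, those most like Ifitm1 were Il1b (0.837), the gene of interleukin 1 beta, Wfdc17 (0.837) and Pilra (0.821). Apart from Ifitm3 (0.897), those most like Ifitm2 were Tppp3 (0.871), Oasl2 (0.856) and Plaur (0.854). Apart from Ifitm2, those most like Ifitm3 were Oasl2 (0.922), Gngt2 (0.9) and Rhoa (0.895). Those most like Ifitm6 were Gpr141 (0.928), Gm9733 (0.919) and Cd300lf (0.901). The sums share libraries, depth and free RNA, so these values are descriptions.

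In the Smart-seq2 sample, 760 of 768 wells had at least 500 genes, and 722 of them were gated as phagocytes, 627 as macrophages. Reads per well ran from 441 to 7854119, and plate medians from 7578 to 466834. Ifitm3 had reads in 95.4% of wells, Ifitm2 in 85.3%, Ifitm6 in 40.9% and Ifitm1 in 15.7%, the same order as in the droplet phagocytes of day 7 and reversed except that Ifitm1 and Ifitm6 change places at day 7. Levels are reads per 1000000 reads of the well (RPM). Per kilobase of exon, median Ifitm3 was 925 RPM and median Ifitm2 was 281. Among wells with reads of either, Ifitm3 made up a median of 78.6% of the pair per length, with quartiles of 59.2% and 90.6%. The length used for Ifitm2 was 655 bases, of which 268 are shared with Gm45717, and Gm45717 had 0 reads. Where reads of shared bases were dropped, Ifitm2 would be too low here and the Ifitm3 share too high, which was not tested. Wells of these mixed time points are 1 sample, and their reads are not independent molecules.

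Among the wells Ifitm6 was highest in Ace-positive monocytes. Its median was 213 RPM in 37 Ace-positive wells, 25 of which had reads, against 0 in 627 macrophage wells, where 37.6% had reads. Of the 20 wells with the most Ifitm6, 10 were Ace-positive and 7 were macrophages. In the 7 Ly6c2-high wells its median was 6.58 RPM, and in 32 type 2 dendritic wells it was 8.39, with reads in 65.6%. Ifitm3 was also higher in Ace-positive wells, at a median of 1779 RPM against 590 in macrophage wells. Depth differed between these classes, with median reads per well of 325936 in Ace-positive and 36340 in macrophage wells. It was 607771 in Ly6c2-high and 337932 in type 2 dendritic wells. Medians and shares with reads were not set to equal depth.

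Ifitm1 was rare in the wells too, with a median of 0 in every gated phagocyte subclass and a highest value of 2526 RPM. Among wells with at least 1000 genes its highest value was 1469 RPM. Of the 20 wells with the most Ifitm1, 16 were macrophages, where 627 of all 760 kept wells were. Another 3 were type 1 dendritic cells, and 6 of 15 type 1 dendritic wells had reads. Among type 2 dendritic wells, 4 of 32 had reads of Ifitm1, where the droplet day 2 and day 7 libraries had a higher level in that subclass than in macrophages. Plates differed: the median of Ifitm3 in macrophage wells ran from 39.6 RPM on plate 1 to 986 on plate 8. Plate, time point and depth cannot be told apart in these wells.

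Ifitm5 and Ifitm7 were near the limit of detection, and Ifitm10 was low. Over all barcodes of sham, day 2, day 7 and reversed, Ifitm5 had 0, 7, 41 and 10 UMIs and Ifitm7 had 1, 1, 7 and 1. Ifitm10 had 26, 165, 212 and 130 UMIs, and in endothelium it was at 28.8, 53.5, 20.02 and 22.8 CPM. Its log2 ratio there was 0.87 for day 2 over sham, -1.37 (-2.02 to -0.72) for day 7 over day 2, where 2.71% of genes were past 2-fold lower, 0.18 for reversed over day 7 and -0.32 for reversed over sham.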

How the data were processed

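For the 4 droplet libraries the deposited values are whole UMI counts by gene and barcode, and for the Smart-seq2 sample whole read counts by gene and well. Cell Ranger, STAR, GRCm38 and mm10 are named in the submitters' processing notes, with no version or role. The Smart-seq2 label repeats the droplet protocol, so how its wells were prepared is not given in the sources used here.

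Of 16876 deposited barcodes, 13332 were kept: at least 200 genes, at most 50% mitochondrial UMIs, and without the highest Scrublet scores, removed at 0.8% per 1000 cells (scanpy 1.11.5). A cell took the class whose listed markers had the highest mean, each marker as log1p of counts per 10000 divided by its 99th percentile, with at least 3 markers detected and a lead of 1.25 times over the next broad class. The markers were listed first and this scoring rule was set after seeing the data. Class UMIs were summed by library and scaled to CPM. Ratios are log2 of CPM + 1 between sums of at least 30 cells, with exact conditional binomial intervals, and a gene counted as past the fold at 1 on the log2 scale with at least 30 UMIs over both libraries. With 1 library per time point there is no p-value. A value of 0 was set to 3 UMIs for a bound. Shares have Clopper-Pearson intervals, which like the Poisson intervals cover counting error only, and are also given with cells thinned to 1000 UMIs. Free RNA was bounded by applying each library's pooled profile at the rate of markers foreign to the class, up to 100%. The ratio steps were tested on simulated data with known folds.

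In the Smart-seq2 sample, wells were kept at a minimum of 500 genes and a mitochondrial share of up to 50%, and were gated with the same markers, and 93 spike-in and EGFP rows, 1.57% of reads, were left out of totals. Positions and lengths are from GENCODE on GRCm38, and promoters from RefSeq on GRCm38.p6.

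Named genes are the members, the other Ifitm genes and the lists of interferon ligands, receptors, signalling genes and targets. With them are the 3 genes, members and class markers apart, most correlated with each member. The values of 1 listed gene are not reported here. The members and lists were chosen with earlier results of these data known. Alternatives tried were a 20% mitochondrial limit, at least 500 genes, no doublet removal, TMM factors (edgeR 4.0.16), DESeq2 1.42.0 size factors, a pseudocount of 10 CPM, no UMI minimum, equal weight per cell, Leiden clusters (leidenalg 0.10.2), free-RNA subtraction, a stricter gate, no thinning and wells with at least 1000 genes. Leaving out monocytes, and leaving out the 1% of cells with the highest level, were added after seeing the data. Scripts ran in R 4.3.3 and in Python 3.11.15 with pandas 2.3.3, scipy 1.17.1 and numpy 2.4.6.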

Additional observations from a re-analysis of the deposited data

How the results depend on the processing

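No paired analysis was possible because each group has 1 library, and no replicate could be left out. Of 34 member ratios past 2-fold with UMIs in both libraries, over 13 classes, all 34 were past it in the same direction with at least 500 genes, no doublet removal, no UMI minimum, and without the top 1% of cells. The number was 33 of 34 with TMM, with DESeq2 size factors and with equal weight per cell, and 32 of 34 with a pseudocount of 10 CPM. Of the ratios that could be computed, it was 21 of 26 with the 20% mitochondrial limit, which left none against sham in loop, principal and intercalated cells, 30 of 33 with clusters, 25 of 27 after free-RNA subtraction and 3 of 4 without monocytes. Ratios within 2-fold that passed it numbered 6 with equal weight, 3 with clusters, 3 without the top 1% and 1 each with the mitochondrial limit, no doublet removal and subtraction. TMM moved the median of all proximal tubule genes from 0.26 to -0.05 at day 2 over sham, from 0.23 to -0.06 at day 7 over day 2, from -0.26 to 0.03 at reversed over day 7 and from 0.24 to -0.06 at reversed over sham, and the median of phagocyte genes from 0.17 to 0.27 at day 2 over sham.

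In phagocytes at day 7 over day 2, Ifitm1 was -1.59 with equal weight per cell, -1.03 with clusters and -1.27 without the top 1% of cells, and Ifitm6 was -1.87 with equal weight and -0.57 without monocytes, which left 1 member past 2-fold in place of 2. Ifitm1 at reversed over day 7 was -1.69 with the larger pseudocount and -2.32 without the top 1%. The settings without monocytes and without the top 1% were chosen after seeing the data. In endothelium without a UMI minimum, members past 2-fold numbered 1 higher at day 2 over sham, 1 higher at day 7 over day 2, 2 lower at reversed over day 7 and 1 higher at reversed over sham, and gamma targets higher at day 7 over day 2 went from 5 to 3 with the larger pseudocount. In proximal tubule the day 2 over sham count of 2 higher members was 0 with the 20% mitochondrial limit and 1 after free-RNA subtraction, and Ifitm3 turned to -0.20 with that limit. The 2 lower at reversed over day 7 became 1 after subtraction, and the 1 higher at reversed over sham became 0 with the mitochondrial limit, 2 with no UMI minimum and 0 after subtraction. The bound on Ifitm1 in phagocytes at reversed over sham went from 0.95 to -0.19 without the top 1% of cells. With the larger pseudocount, Ifitm1 at reversed over day 7 was -1.37 in endothelium, -1.88 in proximal tubule (from -3.44) and -1.98 in macrophages. It was -1.91 in T cells (from -3.29) and -1.53 in injured tubule (from -2.91). At day 2 over sham it was 1.55 in proximal tubule. Without the top 1% of cells, Ifitm1 at reversed over day 7 was -4.22 in proximal tubule and -5.18 in T cells. The cause of these shifts was not tested. Shares moved without thinning in 43 of 60 cases, levels stayed within their intervals with the stricter gate in 63 of 76, and Smart-seq2 shares did so in 16 of 20 with wells of at least 1000 genes.

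The 59 sham phagocytes, with 225591 UMIs, limit every comparison with sham in that class, where 3 UMIs are 13.3 CPM. Each library pooled mice, so the spread between mice was not measured.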
